A study of Mus musculus with 6 samples.

Results

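Notch signalling passes between neighbouring cells. A ligand of the Delta-like (Dll) or Jagged (Jag) family on the surface of a cell binds a Notch receptor on the next, the receptor is cleaved, and its intracellular part enters the nucleus, where it works with the DNA-binding protein Rbpj to switch on target genes such as Hes1, Hey1 and Nrarp. In the thymus the pathway is best known for the commitment of progenitors to the T cell lineage, which depends on Dll4 displayed by cortical epithelium, and it also acts within thymic epithelial cells (TEC) as the medullary lineage is set up. The transcripts described here are those of 10 genes of this pathway, picked by name from the deposited counts of 52636 genes: the receptors Notch1, Notch2 and Notch3, the ligands Dll1, Dll4, Jag1 and Jag2, and the targets Hes1, Hey1 and Nrarp. All 10 had a row in the table and all 10 passed the filter on low counts.

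The counts came from medullary TEC (mTEC) of the tuft-like and the non-tuft-like kind, with 3 libraries each, sorted from thymi of wild-type C57BL/6 mice 6 weeks old. Cells of both groups bound the lectin UEA1, had low surface MHCII, and lacked Sca1 and CD63. The labels also give them as CD80-, while the study's text calls the tuft-like gate CD80lo. Tuft-like mTEC were CD117+ and CD66a+, and non-tuft-like mTEC were CD117- and CD66a-, so the non-tuft-like group is defined by what its cells lack and may hold several mTEC subsets. Neither the labels nor the methods say whether each library was made from its own mice, so the p-values measure only the spread between these libraries, which may be technical. Levels are CPM, counts scaled to the same TMM-normalised library total. Fold changes set tuft-like mTEC over the other group, and a gene was called when the false discovery rate (FDR) over all 32496 tested genes was under 0.05 in edgeR's quasi-likelihood test. In bulk libraries fewer cells of a type and less RNA per cell cannot be told apart.

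Between 20097617 and 48369825 reads per library fell on genes. The labels were set beside lists of marker genes. These lists were chosen with earlier results of these data known, so they are no independent check. Over all tested genes 1.16% were called higher in tuft-like mTEC and 0.951% lower. All 14 tuft cell genes were called higher in tuft-like mTEC, with summed levels of 12148 to 20577.5 CPM against 711 to 873 CPM in non-tuft-like mTEC, and the next 3 lists are given in that order. Of 9 mature mTEC genes 6 were called lower (1149 to 2537 against 6793 to 8379 CPM, with Cd86 at 0 in a library). Of 7 epithelial genes 2 were called lower (5343 to 11819 against 5878 to 6901 CPM), and of 8 cortical TEC genes 3 were (271 to 461 against 836 to 1689 CPM). Reads that HTSeq placed on no gene made up 19.7% to 61.6% of all reads, and tuft-like replicate 1 stood at the upper and tuft-like replicate 3 at the lower end. Counts per exon kb on the 1134 olfactory receptor genes, which serve here as a measure of stray reads, followed the same order, with 15.2 in tuft-like replicate 1 and 2.54 in tuft-like replicate 3. The study describes mTEC as expressing tissue-restricted antigens, so part of these counts may be transcripts of the cells themselves. That part was not tested.

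Of the 10 genes, Notch1 was called, lower in tuft-like mTEC, and none was called higher. Over all tested genes 2.11% were called in either direction and 0.951% were called lower, and among 11593 genes whose mean reached 10 CPM, 5.84% were called. Of the 10 genes 7 reached that mean. The estimated fold change was below 0 on the log2 scale for 9 of the 10 genes, Jag2 being the exception, and the median was -1.74 against 0.02 over all tested genes. In 6 of the 10, Notch1, Notch3, Dll1, Jag1, Hes1 and Hey1, every tuft-like library lay below every non-tuft-like library, a pattern that 8.85% of all tested genes showed. The opposite pattern, which 7.18% of all tested genes showed, was seen in 0 of the 10. An unadjusted p under 0.05 was reached by 5 of the 10 (Notch1, Notch2, Notch3, Dll1 and Jag1), and by 8.97% of all tested genes.

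**Figure D1:**
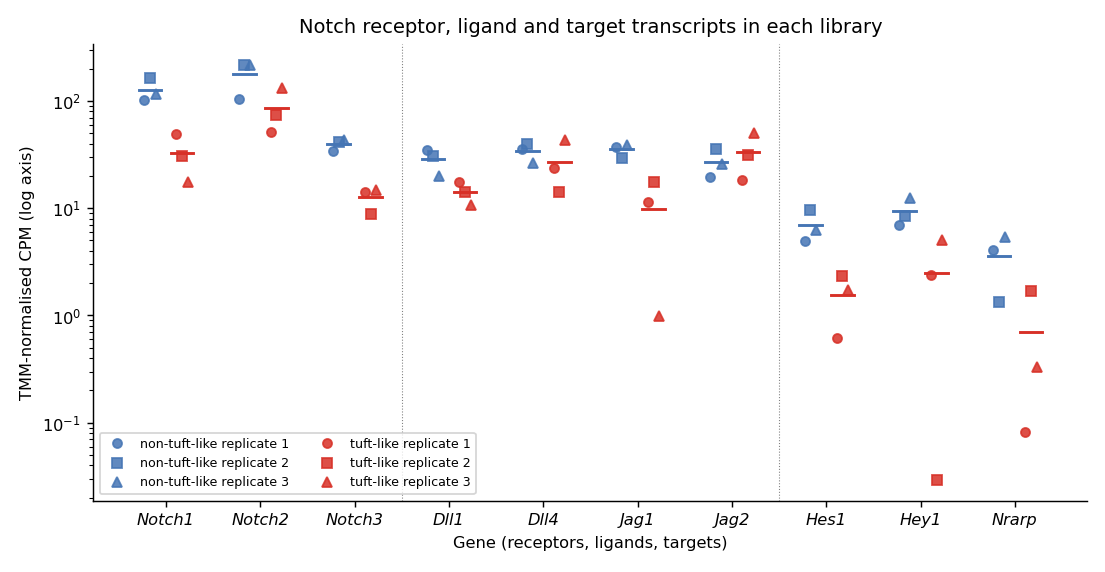
Level of each Notch receptor, ligand and target transcript in TMM-normalised CPM on a log axis, with a point for each of the 3 non-tuft-like (blue) and 3 tuft-like (red) libraries and a line at the group mean. The groups are apart for Notch1, Notch3, Dll1, Jag1, Hes1 and Hey1, and they overlap for Notch2, Dll4, Jag2 and Nrarp, while the tuft-like libraries are spread widely for Jag1, Hey1 and Nrarp.

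Notch1 (ENSMUSG00000026923) is the receptor that progenitors need to become T cells, and it also restrains growth in squamous epithelia. Its gene lies on the minus strand of chromosome 2 of mm10, from 26457903 to 26516663. Its level was 103, 162 and 117 CPM across the non-tuft-like libraries and 49.4, 30.6 and 17.7 CPM across the tuft-like ones, listed here and below in the order of replicates 1, 2 and 3. The highest tuft-like library was thus below the lowest non-tuft-like library, and the tuft-like libraries themselves differed by a factor of 2.80. The log2 fold change was -1.97 (95% interval -2.84 to -1.09, standard error 0.39, edgeR FDR 0.0300), a level 3.91-fold higher in non-tuft-like mTEC. The call was lost without non-tuft-like replicate 2 (edgeR FDR 0.112), without non-tuft-like replicate 3 (0.0508) or without tuft-like replicate 2 (0.121), with log2 fold changes between -2.39 and -1.71 over all 6 omissions of a library. It was also lost with scaling by library size only (edgeR FDR 0.0767) and with a correction for GC content and gene length fitted over all tested genes (0.780), which left 63 genes called in all.

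Notch2 (ENSMUSG00000027878; chromosome 3, plus strand, 98013527 to 98150361), a receptor with broad expression in epithelia and blood cells, had the highest level per exon kb of the 3 receptors in both groups. It stood at 105, 214 and 217 CPM in the non-tuft-like libraries and at 51.5, 74.6 and 133 CPM in the tuft-like libraries. The groups overlapped, because tuft-like replicate 3 exceeded the lowest non-tuft-like library, replicate 1. A log2 fold change of -1.05 (95% interval -1.96 to -0.14) did not pass the test (edgeR FDR 0.393).

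Notch3 (ENSMUSG00000038146; chromosome 17, minus strand, 32120820 to 32166852) is known above all from the mural cells of blood vessels. Its non-tuft-like libraries were the least scattered of the 10 genes, and the levels were 34.2, 41.4 and 42.9 CPM across the non-tuft-like libraries and 14.1, 8.92 and 14.9 CPM across the tuft-like ones. All tuft-like libraries were below all non-tuft-like libraries. Its log2 fold change was -1.64 (95% interval -2.47 to -0.81), which did not pass the test (edgeR FDR 0.0560). Of 16 alternative settings 6 called it lower, among them DESeq2 (FDR 0.00210) and the omission of tuft-like replicate 3 (edgeR FDR 0.0381).

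Markers of cell types that carry these receptors were read beside them. Such transcripts need not come from other cells, as the study found signatures of keratinocyte-like TEC within its mature mTEC. Their source here was not tested. Of 7 genes of vascular mural cells (pericytes and smooth muscle), Rgs5 was called lower in tuft-like mTEC, and the summed level was 234 to 386 CPM across the non-tuft-like libraries and 47.7 to 92.6 CPM across the tuft-like ones, lower together with Notch3, and none of the 7 was at 0. Rgs5, Acta2, Myh11 and Tagln lay lower in every tuft-like library and Pdgfrb higher (16.3 to 16.7 CPM in the non-tuft-like and 19.5 to 33.8 CPM in the tuft-like libraries, edgeR FDR 0.941), while Cspg4 and Kcnj8 overlapped. Of 9 keratinocyte genes, 5 were called lower (166 to 1456 CPM in tuft-like against 3722 to 5825 CPM in non-tuft-like libraries, with Krtdap having the most CPM and none at 0). Their part in the values of Notch1 and Notch3 was not tested. The 13 thymocyte genes, 12 of them tested, summed to 33.8 to 45.2 CPM across the non-tuft-like libraries and 42.2 to 65.9 CPM across the tuft-like ones with none called, and Cd3d, Cd8a, Cd8b1, Rag1, Ptcra and Cd2 were at 0 in at least 1 library. Of 7 myeloid genes 1 was called lower (151 to 213 CPM in tuft-like against 225 to 350 CPM in non-tuft-like libraries, with Lyz2 having the most CPM and Itgam and Itgax at 0 in a library).

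The promoters of Notch1 and Notch3 are shown because these receptors gave the lowest FDR of the 10 genes. Each sequence holds the 250 bases before the RefSeq start of the gene (GRCm38.p6, minus strand, 5′ to 3′). Capitals mark the N-box, CACNAG on either strand, a hexamer that Hes1 and its relatives can bind.

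Notch1, chr2:26503823-26504072: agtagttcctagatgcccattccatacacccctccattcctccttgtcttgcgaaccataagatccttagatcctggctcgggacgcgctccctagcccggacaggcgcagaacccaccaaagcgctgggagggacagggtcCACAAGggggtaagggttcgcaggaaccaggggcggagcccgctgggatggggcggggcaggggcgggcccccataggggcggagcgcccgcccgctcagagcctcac

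Notch3, chr17:32166891-32167140: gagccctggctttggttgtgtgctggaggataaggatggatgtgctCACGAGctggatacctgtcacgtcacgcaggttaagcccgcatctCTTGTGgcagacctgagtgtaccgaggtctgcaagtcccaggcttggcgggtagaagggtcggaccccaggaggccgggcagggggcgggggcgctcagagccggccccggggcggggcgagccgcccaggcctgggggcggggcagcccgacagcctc

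The Notch1 window lies inside the gene as GENCODE draws it. It holds 1 N-box and 5 copies of the GC-box GGGCGG (searched on both strands), and the Notch3 window holds 2 and 4. RefSeq windows were found for 8 of the 10 genes, 9 windows in all, and none was found for Hes1 and Hey1. The Jag2 window and a Dll1 window also lie inside their GENCODE genes, and the Jag1 and Notch2 windows do in part. The core that Rbpj binds, TGGGAA on either strand, was in 0 of these 9 windows and in 21.6% of all 32851 windows of the same length. The N-box was in 5 of the 9 and in 36.7% of all windows, and the GC-box in 6 of the 9 and in 32.7%. The 9 windows held 13 to 54 CpG dinucleotides, against a median of 6.0 over all windows.

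Of the ligands, Dll4 (ENSMUSG00000027314; chromosome 2, plus strand, 119325784 to 119335962) drives T lineage commitment from the thymic cortex. It was present in both mTEC groups, at 35.3, 39.6 and 26.4 CPM across the non-tuft-like libraries and 23.7, 14.0 and 43.2 CPM across the tuft-like ones. Tuft-like replicate 3 was the highest of all 6 libraries and tuft-like replicate 2 the lowest. Its log2 fold change of -0.32 (95% interval -1.30 to 0.65) did not pass the test (edgeR FDR 1.0), and the interval leaves room for a change of either sign.

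Dll1 (ENSMUSG00000014773; chromosome 17, minus strand, 15367354 to 15376872), a ligand that also supports lymphocyte development, had 35.1, 30.6 and 19.8 CPM across the non-tuft-like libraries and 17.4, 14.3 and 10.6 CPM across the tuft-like ones. The groups did not overlap, although the lowest non-tuft-like and the highest tuft-like library lay close together. A log2 fold change of -1.01 (95% interval -1.97 to -0.06) was not called (edgeR FDR 0.486).

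Jag1 (ENSMUSG00000027276; chromosome 2, minus strand, 137081456 to 137116644) is a ligand of many epithelia and of vessel walls. It was even across non-tuft-like libraries, with 37.4, 29.4 and 39.0 CPM, and uneven across tuft-like libraries, with 11.4, 17.4 and 0.994 CPM. Tuft-like replicate 3, which was sequenced deeply and had the fewest stray reads, held 36 counts, against 594 in tuft-like replicate 2. On the log2 scale the change of -1.83 (95% interval -3.55 to -0.12) was not called (edgeR FDR 0.482), and it was -1.33 without tuft-like replicate 3 and -2.53 without tuft-like replicate 2.

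Jag2 (ENSMUSG00000002799; chromosome 12, minus strand, 112907819 to 112929776), the second Jagged ligand, needed for the development of unconventional T cells in the thymus, was the only one of the 10 genes with a higher mean in tuft-like mTEC. It had 19.7, 36.0 and 25.9 CPM across the non-tuft-like libraries and 18.5, 31.5 and 50.2 CPM across the tuft-like ones. The groups overlapped, with tuft-like replicate 1 the lowest and tuft-like replicate 3 the highest of all 6. Its log2 fold change was 0.30 (95% interval -0.67 to 1.26, edgeR FDR 1.0), and its sign turned without tuft-like replicate 3 (-0.16).

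Endothelial cells carry Dll4, Jag1 and Hey1, so their markers were read beside these genes. Of 9 endothelial genes Tek was called higher in tuft-like mTEC, and the summed level was 112 to 170 CPM across the non-tuft-like libraries and 250 to 471 CPM across the tuft-like ones, with Tek (23.4 and 179 CPM on average) and Esam (12.5 and 69.3 CPM, edgeR FDR 0.0522) apart between the groups and higher in tuft-like mTEC. Flt1 lay the other way, at 77.0 and 21.2 CPM, also without overlap (edgeR FDR 0.0773), and the other 6 overlapped between the groups. Pecam1 was at 106 CPM in tuft-like replicate 1 and at 3.07 to 8.99 CPM in the other libraries, and Emcn was at 0 in a library. The 6 fibroblast genes summed to 31.7 to 60.1 CPM across the non-tuft-like libraries and 14.8 to 164 CPM across the tuft-like ones with none called, and Col3a1 was at 0 in a library. Whether these transcripts came from such cells was not tested, nor was the part of such cells in the ligand and target values. None of Dll4, Jag1, Jag2 and Hey1 was called without tuft-like replicate 1. None was called with all 6 libraries either, so this omission cannot show that part.

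**Figure D2:**
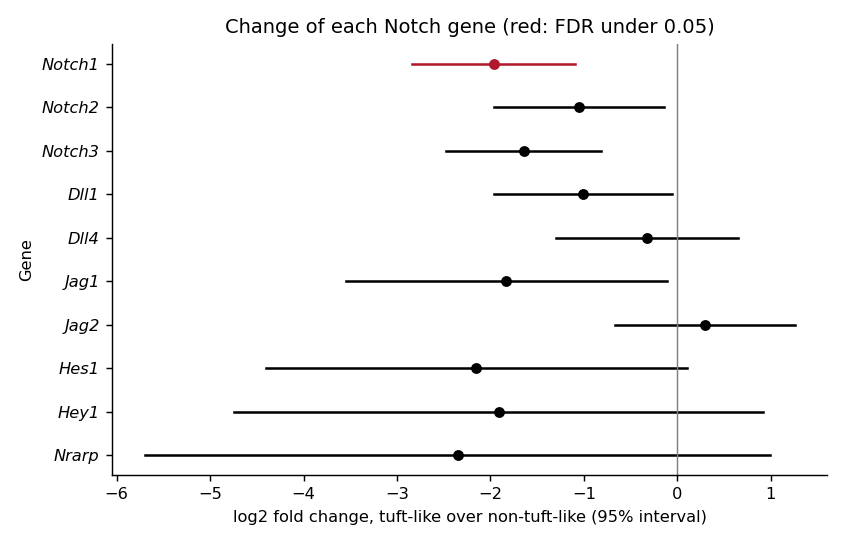
Log2 fold change of each Notch gene, tuft-like over non-tuft-like, with the 95% interval from edgeR's quasi-likelihood fit. The interval of Notch1, the called gene (red), runs from -2.84 to -1.09, those of Dll4 and Jag2 lie around 0, and those of Hes1, Hey1 and Nrarp are the widest and include 0.

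Per exon kb the targets had the lowest levels of the 10 genes in both groups, with a limit for Nrarp given below. Hes1 (ENSMUSG00000022528; chromosome 16, plus strand, 30064384 to 30067796), a transcriptional repressor that holds back proneural and secretory genes, had 4.95, 9.60 and 6.23 CPM across the non-tuft-like libraries and 0.620, 2.31 and 1.74 CPM across the tuft-like ones. These values rest on 157, 451 and 196 counts and on 15, 79 and 63 counts. The groups were apart, and the log2 fold change was -2.15 (95% interval -4.40 to 0.10, edgeR FDR 0.609).

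Hey1 (ENSMUSG00000040289; chromosome 3, minus strand, 8663359 to 8667256), a related repressor, had 7.04, 8.41 and 12.6 CPM across the non-tuft-like libraries and 2.40, 0.0292 and 4.999 CPM across the tuft-like ones. Tuft-like replicate 2 held 1 count, under the 3 counts (0.0877 CPM in that library) that a count of 0 would allow, while tuft-like replicate 3 held 181. Its log2 fold change of -1.91 (95% interval -4.74 to 0.92) was not called (edgeR FDR 0.986).

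Nrarp (ENSMUSG00000078202; chromosome 2, plus strand, 25180758 to 25183339) is a small ankyrin protein that is induced by Notch and dampens it. It had 4.10, 1.34 and 5.40 CPM across the non-tuft-like libraries and 0.0827, 1.70 and 0.331 CPM across the tuft-like ones, and the groups overlapped. Its log2 fold change was -2.35 (95% interval -5.70 to 0.99, edgeR FDR 0.948). Of its 2582 exonic bp 2051 lie opposite Gm38287, which had 0 counts in all 6 libraries. The strand setting of the counting is not given in the sources used here, and without strand, reads from this stretch cannot be assigned to either gene. In that case the level of Nrarp per exon kb, taken over all 2582 bp, would be too low. Its place among the genes could then be too low as well.

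Exons of 5 further genes overlap those of another gene. The shared length is 1389 of 14232 bp for Notch1, 867 of 4219 bp for Dll1, 488 of 8089 bp for Notch3 and 214 of 3852 bp for Dll4, all with genes on the other strand, and 541 of 10782 bp for Notch2 with Gm42820 on the same strand. No exon of Jag1, Jag2, Hes1 or Hey1 is shared.

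The levels were set against stray reads. In non-tuft-like mTEC 9 of the 10 genes, all but Nrarp, had more counts per exon kb in every library than 99% of the olfactory receptor genes did. The value of Nrarp carries the limit given with its overlap. In tuft-like mTEC 3 of the 10 did, Notch2, Dll1 and Dll4. Notch1 stood at 3.03 to 6.58 times that limit in non-tuft-like libraries and at 0.999 to 1.26 times in tuft-like libraries. Hes1 stood at 1.13 to 2.72 and at 0.111 to 0.687 times. This limit is set by the olfactory receptor genes with the most counts per kb. It lies far above their mean, at 45.0 against 2.54 counts per kb in tuft-like replicate 3. A gene under it can still exceed the mean level of stray reads. The mean count per kb of the olfactory receptor genes, multiplied by the exon length, would account for 1.75% to 5.24% of the Notch1 counts in non-tuft-like and for 5.65% to 18.1% in tuft-like libraries. For Notch3 the shares were 3.88% to 8.10% and 3.81% to 36.0%. With these reads subtracted both were called, Notch1 at -2.04 (edgeR FDR 0.0413) and Notch3 at -1.95 (edgeR FDR 0.0300) on the log2 scale.

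Levels were compared between genes per exon kb. In non-tuft-like mTEC the mean level fell from Notch2 (16.6 ± 5.95 CPM per kb, SD, n = 3) through Notch1 (8.94 ± 2.19), Dll4 (8.77 ± 1.74), Dll1 (6.75 ± 1.86), Jag1 (6.05 ± 0.881), Notch3 (4.89 ± 0.573), Jag2 (3.90 ± 1.18), Hes1 (3.40 ± 1.18) and Hey1 (2.86 ± 0.880) to Nrarp (1.4 ± 0.803). In tuft-like mTEC Notch2 (8.0 ± 3.87 CPM per kb, SD, n = 3) and Dll4 (7.01 ± 3.86) were followed by Jag2 (4.80 ± 2.29), Dll1 (3.35 ± 0.811), Notch1 (2.29 ± 1.12), Jag1 (1.70 ± 1.42), Notch3 (1.56 ± 0.402), Hes1 (0.764 ± 0.422), Hey1 (0.758 ± 0.761) and Nrarp (0.272 ± 0.336). In both orders, each pair of neighbours differed by less than the sum of their SDs. Notch2 headed and the targets closed both orders, while Notch1 stood next to the top in non-tuft-like mTEC and behind Dll4, Jag2 and Dll1 in tuft-like mTEC. The place of Nrarp carries the limit given with its overlap.

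The make-up of receptors and ligands within a library does not depend on scaling between libraries and is given as a description. Notch2 held 45.9%, 54.6% and 59.9% of the summed receptor counts per exon kb in the non-tuft-like libraries and 47.8%, 68.0% and 79.9% in the tuft-like libraries. Notch1 held 34.1%, 31.3% and 24.4%, and 34.8%, 21.1% and 8.08%. Tuft-like replicate 1 thus resembled the non-tuft-like libraries in its receptor make-up, and tuft-like replicate 3 stood farthest from them.

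Among the ligands Dll4 held 34.2% ± 2.89 of the summed counts per exon kb in non-tuft-like and 39.9% ± 14.1 in tuft-like libraries (SD, n = 3). Jag1 held 24.0%, 18.2% and 30.5% in non-tuft-like and 13.1%, 20.5% and 0.808% in tuft-like libraries, and Jag2 held 10.6%, 18.6% and 17%, and 17.8%, 31.1% and 34.1%. The ratio of Jag1 to Jag2 per kb was 2.28, 0.977 and 1.80 in the non-tuft-like libraries and 0.735, 0.658 and 0.0237 in the tuft-like libraries. On this ratio, chosen after the values were seen, the groups did not overlap. In tuft-like replicates 1 and 3 Jag1 lay under the olfactory receptor limit given above, at 0.709 and 0.137 times it. So did Jag2 in tuft-like replicate 1, at 0.964 times.

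**Figure D3:**
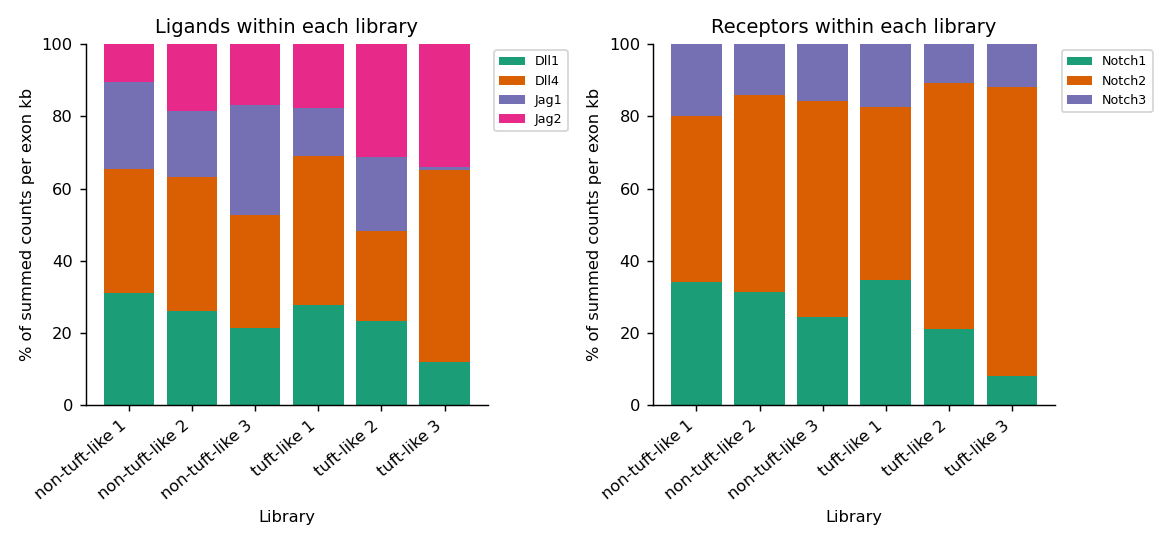
Share of each ligand (left) and each receptor (right) in the summed counts per exon kb of its class, in percent, with a stacked bar for each library. The Jag1 share is 0.808% in tuft-like replicate 3 and at least 18.2% in every non-tuft-like library, and the Notch2 share reaches 79.9% in tuft-like replicate 3.

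Another 63 genes of the pathway, listed by role, were read in the same test. For 7 of the 8 roles the gene with the most CPM is named below, an order that depends on gene length. Of these 60 were tested (Dlk2, Hes5 and Hes7 were not), 1 was called higher in tuft-like mTEC, 0 were called lower, and the median log2 fold change was -0.15. The share over all tested genes was 1.16% called higher. At an unadjusted p under 0.05 there were 10 of the 60, against 8.97% of all tested genes. DESeq2 called 2 higher and 3 lower, and it called 5.86% of all tested genes.

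The called gene was Neurl1a (ENSMUSG00000006435; chromosome 19, plus strand, 47178820 to 47259441), which encodes a neuralized-type ubiquitin ligase, a family that drives endocytosis of Notch ligands in the sending cell. It had 28.2, 12.8 and 12.3 CPM across the non-tuft-like libraries and 32.8, 152 and 184 CPM across the tuft-like ones. Tuft-like replicate 1 was close to non-tuft-like replicate 1, so the groups were only just apart. Its log2 fold change was 2.79 (95% interval 1.46 to 4.13, edgeR FDR 0.0433). The call was lost without non-tuft-like replicate 2 (edgeR FDR 0.141), non-tuft-like replicate 3 (0.116), tuft-like replicate 2 (0.0972) or tuft-like replicate 3 (0.124). It was also lost with the replicate number as a block (edgeR FDR 0.0582) and with the GC and length correction fitted over all tested genes (0.218). Of the 7284 exonic bp of Neurl1a 690 are shared with AC132288.2 on the same strand.

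The machinery that cleaves the receptor had 10 tested genes and none called, and their median on the log2 scale was 0.10. The member with the most CPM was Ncstn, the nicastrin subunit of gamma-secretase, at 250 ± 49.7 CPM across the non-tuft-like libraries and 315 ± 121 CPM across the tuft-like ones (SD, n = 3). The 5 glycosylation genes, which tune the receptor's choice of ligand, had a median of -0.72 and none called. Poglut1, a glucosyltransferase of the receptor's EGF repeats, was at 127 ± 6.58 and 74.6 ± 12.5 CPM (SD, n = 3, edgeR FDR 0.265).

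Of the 13 genes of endocytosis and ubiquitin transfer, the 12 other than Neurl1a were not called, and the median of the 13 was -0.09. The gene with the most CPM was Itch, a ubiquitin ligase that targets Notch, with 112, 80.15 and 72.7 CPM across the non-tuft-like libraries and 144, 152 and 222 CPM across the tuft-like ones (log2 fold change 0.97, edgeR FDR 0.197, DESeq2 FDR 0.0142). Dtx1 was at 0 in a library.

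The 7 nuclear activators had a median of -0.32 and none called. The most CPM were those of Snw1, a transcriptional co-regulator, at 117 ± 12.1 and 157 ± 55.4 CPM in non-tuft-like and tuft-like mTEC (SD, n = 3), and Rbpj itself, looked up after the values were seen, was at 52.5 ± 7.70 and 40.2 ± 7.50 CPM (log2 fold change -0.39, edgeR FDR 1.0). The 11 co-repressors had a median of -0.04 and none called, with the deacetylase Hdac1 having the most CPM at 180.4 ± 37.7 and 219 ± 56.5 CPM (SD, n = 3).

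The other receptors and ligands had 4 tested genes, none called, and a median of -0.31. Dner had the most CPM at 57.2 ± 11.99 and 48.6 ± 20.5 CPM (SD, n = 3). Dlk1, a non-canonical ligand singled out after its values were seen, had 345, 396 and 211 counts in the non-tuft-like and 21, 10 and 2 counts in the tuft-like libraries (-4.42 on the log2 scale, edgeR FDR 0.133, DESeq2 FDR 0.000501).

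The other Hes and Hey genes had 6 tested members, all with a fold change below 0 on the log2 scale and none called, and a median of -0.86. Over all tested genes 15928 of 32496 were below 0. Hes3, Hey2 and Helt passed the olfactory receptor limit given above in 0 libraries and Hes2 in 1. Their signs thus rest on counts mostly under that limit, which itself lies above the mean level of stray reads. Hes6, which counteracts Hes1 and is not itself a Notch target, had the most CPM of the 8 listed at 341 ± 50.7 and 275 ± 114 CPM (SD, n = 3), and Hes2, Hes5, Hey2 and Helt were at 0 in a library. Heyl, which is induced by Notch in mural cells and was singled out after its values were seen, had 31.2, 23.1 and 18.5 CPM across the non-tuft-like libraries and 7.52, 4.91 and 8.64 CPM across the tuft-like ones (log2 fold change -1.79, edgeR FDR 0.132, DESeq2 FDR 0.00757), and the summed level of the mural cell genes given beside Notch3 was lower with it. Their part in the Heyl values was not tested.

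The 4 proneural genes, which Hes proteins repress in other tissues, had a median of -0.07 and none called.

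**Figure D4:**
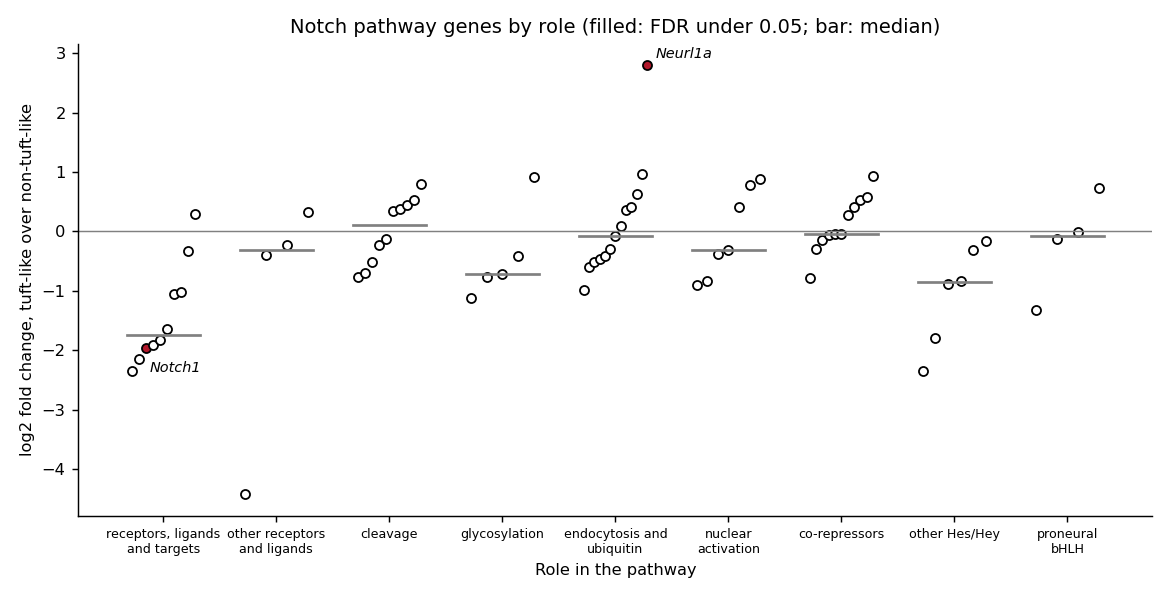
Log2 fold change, tuft-like over non-tuft-like, of the 10 Notch receptors, ligands and targets and of the 60 other tested pathway genes, grouped by role, with filled points for the 2 called genes and a bar at each group's median. Notch1 at -1.97 and Neurl1a at 2.79 are filled, and the median is -1.74 for the 10 genes and lies between -0.86 and 0.10 for the other roles.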

How the data were processed

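The deposited values are raw gene counts. Per the study's methods, reads were trimmed (Trimmomatic 0.36), mapped to mm10 (STAR 2.7.3a) and counted by HTSeq in its intersection-nonempty mode. The annotation release and the strand setting are not given in the sources used here. Rows of the 92 ERCC controls and of reads on no single gene (27.1% to 66.6% of all reads) were left out. Gene identifiers were matched to GENCODE M21 (99.7% of rows), which also gave exon lengths.

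Groups came from the sample labels. Counts were filtered with filterByExpr (minimum count 10, minimum total 15), TMM-normalised and tested without covariates in edgeR 4.0.16 (quasi-likelihood F-test, Benjamini-Hochberg over all tested genes) in R 4.3.3. Standard errors are the absolute log2 fold change over the square root of F. Exact permutation over 3 and 3 libraries reaches no p below 0.10. A count of 0 allows up to 3 counts, or 0.0639 to 0.124 CPM per library, and such limits cover counting error only. Replicate numbers were checked for pairing.

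The 10 genes and the gene lists were chosen with earlier results of these data known. Named were the 10 genes, other pathway genes called or with the highest CPM in their role, and markers at 0 or with the highest CPM in their list. Outside this rule, Rbpj, Dlk1, Heyl, Esam, Flt1, Pecam1 and the mural cell genes other than Rgs5 were named as well. The values of 1 other pathway gene are not reported here. Alternatives covered other scalings, filters and tests (DESeq2 1.42.0, limma 3.58.1), the replicate block, omission of each library, subtraction of stray reads, and corrections for GC content and gene length. N-box and GC-box searches were added after the data were seen.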

Additional observations from a re-analysis of the deposited data

How the results depend on the processing

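The count of 687 called genes moved to 1045 with scaling by library size only, 1127 without the filter, 1533 with a filter of at least 10 CPM, 1904 with DESeq2, 1055 after subtraction of stray reads, 63 with the length and GC offset fitted over all tested genes and 319 at an FDR of 0.01, and to between 376 and 922 with each library left out. That offset also moved the share of calls that were higher in tuft-like mTEC from 55.0% to 81.0%, and without tuft-like replicate 3 it was 33.6%. The same correction fitted on genes reaching 10 CPM and on all tested genes moved the median of all genes by 0.14 and 0.21 (log2). Of the 10 Notch genes, 2 were called lower without the filter, with the 10 CPM filter, with DESeq2 and after subtraction. These were always Notch1 and Notch3. With the 10 CPM filter Hes1, Hey1 and Nrarp were not tested. Calls over all tested genes, in either direction, numbered 1127 of 47762 without the filter and 1533 of 11850 with the 10 CPM filter. They numbered 1904 of 32496 with DESeq2 and 1055 of 26539 after subtraction. The count of Notch genes called lower was 0 with the offset over all tested genes and at an FDR of 0.01. With each library left out the count was 0 to 2. With library size only it was 1, Notch3 in place of Notch1. None was called higher under any of these settings. Of the other pathway genes, those called lower numbered 1 with library size only, 2 with the 10 CPM filter, 3 with DESeq2, 2 after subtraction and 0 to 1 with each library left out, and those called higher numbered 2, 2, 2, 2 and 0 to 1, and 0 with the offset over all tested genes and at an FDR of 0.01. Dll4 reversed, without a call, to 0.29 with that offset, and Jag2 to -0.16 without tuft-like replicate 3, within a range up to 0.59 with each library left out. The causes were not tested.

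The deviations of same-numbered libraries from their group means correlated at -0.170, -0.0625 and -0.339, so the numbers were not taken as pairs. No library correlated best with its own number. With the replicate number as a block 737 genes were called, Notch1 remained (edgeR FDR 0.0154) and Neurl1a was not called (0.0582), which made 0 other pathway genes called higher; no other call among the named pathway genes changed.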
